A study of Mus musculus with 46 samples.

Results

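A set of 184 mouse genes in which H3.3 was called from day 3 of reprogramming onwards, and not before, was described here out of 22367 protein-coding genes, a share of 0.823%. A gene was taken as bound when the midpoint of an H3.3 peak lay between 1 kb before the gene start and 1 kb after the gene end. The 184 genes were chosen by these calls alone, being not bound in D0 and bound in each of the 6 libraries D3, D6T-, D9T-, D12S+, D16S+ and iPSCs. The H3.3 values of these 7 libraries are therefore a description of the choice, whereas the other H3.3 libraries, H3K4me3 and H3K36me3 were not used in it.

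D0 cells were mouse embryonic fibroblasts (MEFs) before induction, and all later cells on the route had been infected with retroviruses carrying Oct4, Sox2, Klf4 and c-Myc (OSKM). D3 cells were not sorted. On days 6 and 9 cells were sorted by Thy-1, a fibroblast surface protein, into Thy-1- cells taken as passing through the successful route (D6T-, D9T-) and Thy-1+ cells taken as unsuccessful (D6T+, D9T+), and on days 12 and 16 by SSEA-1, a pluripotency surface marker, into successful (D12S+, D16S+) and unsuccessful (D12S-, D16S-) cells. The iPSCs were the reprogrammed end point and ESD3 were mouse embryonic stem cells. A second set of H3.3 libraries came from the conversion of MEFs to blood progenitors with Scl, Lmo2, Runx1 and Bmi1, with MEF and D4 cells and with sorted cKit+ and cKit- cells. Each group was 1 library, so no difference here has a replicate check, and how many animals, embryos or clones gave each library is not given in the sources used here.

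H3.3 is a variant of histone H3 that is placed into chromatin outside DNA replication, at transcribed genes and regulatory elements by the chaperone Hira and at repeats and heterochromatin by Atrx and Daxx. H3K4me3 marks the start sites of active and poised genes, and H3K36me3 is laid down along the bodies of genes as they are transcribed. Fibroblasts undergoing reprogramming first take on epithelial features and activate the pluripotency network later.

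The 12 H3.3 libraries of the reprogramming series, ESD3 included, held between 18.8 and 41.2 M tags and between 34062 peaks in D16S+ and 89727 in D0. Between 4.88% (D16S+) and 22.0% (D12S-) of the tags fell in peaks, so the late SSEA-1+ libraries had fewer and weaker calls than their SSEA-1- partners. A total of 1459 genes were bound in the other 6 of the 7 libraries and not in D16S+, against 428 for D12S+, 232 for D3, 184 for D0, 152 for iPSCs, 147 for D9T- and 129 for D6T-. Levels below are summed scores, the sum of the normalised tag counts per 10000000 tags of the peaks assigned to a gene, and an absent peak is written as a score of 0, which is the absence of a call and not the absence of H3.3. Intervals are 95% Wilson intervals over genes, which share a library and are not replicates, and cover counting error only.

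The D0 label held for 112 of the 184 genes and was weak for the other 72. In D0 no peak touched the gene or its 1 kb flanks at the 112 genes. At 72 genes (39.1%) a D0 peak did reach into this window, with its midpoint a median of 478 bp outside it, a median length of 5.57 kb and a median score of 84.3. The D0 peak overlapped the gene itself in 46 genes, and covered more than 50% of it in 27. At these genes the lack of a call in D0 rested on where the midpoint of a broad peak fell. Only 70 of the 184 genes had no D0 peak within 5 kb, and the nearest D0 peak lay a median of 2.48 kb from the gene. The values below are therefore given for both sets where a result turns on the split.

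**Figure D1:**
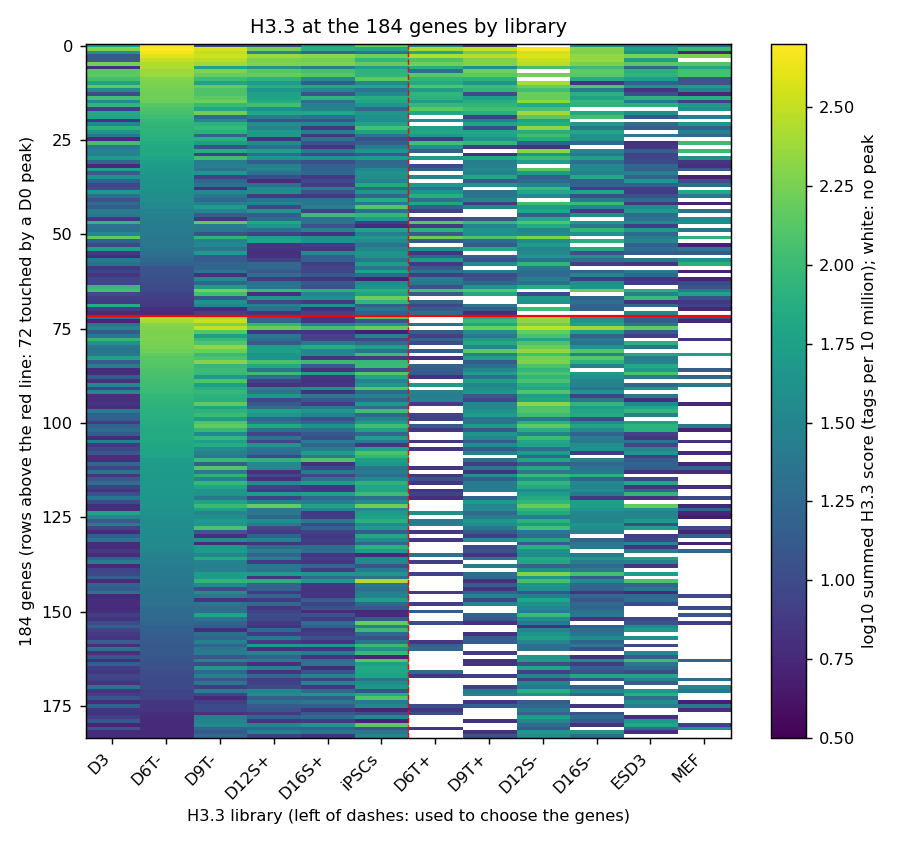
Summed H3.3 score (log10 of tags per 10000000 tags) of each of the 184 genes, as rows, in 12 H3.3 libraries, as columns. White marks a gene with no peak. The 72 genes above the red line are touched by a D0 peak, and the white cells of D6T+ and MEF lie mostly below the line.

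H3.3 at the 184 genes was low in D3 and higher in the later libraries. The median summed score was 13.3 at D3, 40.7 at D6T-, 37.6 at D9T-, 21.1 at D12S+, 15.2 at D16S+ and 37.7 in iPSCs. D3 was the lowest of the 6 libraries for 75 genes and D16S+ for 44, while D6T- was the highest for 60, iPSCs for 53 and D9T- for 48. Libraries with few tags in peaks have low scores at every gene, so the scores were also set against the median score of the 6273 genes bound in D0 and in all 6 later libraries. On this ratio of scores the median member was 0.192 at D3, 0.324 at D6T-, 0.422 at D9T-, 0.505 at D12S+, 0.606 at D16S+ and 0.529 in iPSCs. The order of D12S+ and D16S+ thus depended on the scale, being below D6T- by the score and above it by the ratio. The 112 genes untouched in D0 had a median score of 9.38 at D3 and the 72 touched genes 23.4, and both sets were close in D6T-, at 37.9 and 44.4.

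The lowest calls lay near the limit of detection. In D3, where the lowest peak score of the library was 5.03, the first quartile of the members was 7.16. Among genes named below, Sall4 and Marveld3 (6.00), Smagp and Gpa33 (6.19), Spint2 (6.39) and Grhl1 (6.97) lay under it in D3. Perp (7.55) lay just above it. Each of these D3 calls rested on 1 peak. The members just inside the rule were Shroom2, which codes for an actin-binding protein of epithelial cells, with a score of 4.98 in iPSCs, Elavl2, which codes for a neuronal RNA-binding protein, with 5.22 in iPSCs, and Hoxc8, a homeobox gene, with 5.35 in iPSCs. Just outside were 388 genes not bound in D0 and bound in 5 of the 6 later libraries, of which 156 lacked D3 and 95 lacked D16S+. Clec2g, a C-type lectin gene, scored 0 at D3 and between 40.9 and 297.3 in the other 5 libraries. The predicted gene 2210408I21Rik scored 0 at D3 and 2498 in iPSCs. Genes on both sides of the rule thus differed by a single call.

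By known function, 120 of the 184 genes were placed in 9 groups after the members had been seen. There were 27 genes of metabolism and transport, 24 of transcription, 17 of protein synthesis, 11 signalling ligands and receptors, 10 of epithelial junctions and surface, 9 of mitosis and the centrosome, 8 signalling enzymes and adaptors, 7 of nerve and muscle, and 7 of the secretory pathway. The other 64 genes had no role given here. Among lists drawn up for the tissue and the treatment, 4 of 47 epithelial genes were members (8.51%, against 0.823% of all genes), and 4 of the 19 epithelial genes not bound in D0. The pluripotency list gave 1 member of 56 genes (Sall4), the hematopoietic list 1 of 23 (Myb) and the energy metabolism list 1 of 63 (Pdk1). No member came from the fibroblast and mesenchymal list, in which 48 of 50 genes were already bound in D0, nor from the lists of chromatin regulators (67 of 70 bound in D0), cell cycle genes (68 of 74), germline genes (22 of 50) or neural genes (27 of 43). Of the 4 delivered factors, 3 were bound in D0 and none was a member. By name, ribosomal protein genes gave 8 members of 148 and zinc-finger genes 10 of 434.

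The protein synthesis group held the members strongest by their lowest score over the 6 libraries and was the group most often touched by D0 peaks. A D0 peak reached 14 of its 17 genes, against 2 of 10 epithelial genes. All 17 had H3K4me3 in D0. Rps19 (ENSMUSG00000040952.9, chr7:25669390-25674825, plus strand, mm9), a protein of the small ribosomal subunit, scored 174.6 at D3, 275.1 at D6T-, 238.5 at D9T-, 187.3 at D12S+, 183.3 at D16S+ and 148.3 in iPSCs. In D0 a 10.1 kb peak with a score of 210.3 covered 73.3% of Rps19, its midpoint 53 bp outside the window. The D0 peak of Rps19 was thus above its D3 score, although the rule listed D0 as unbound. Rps19 was also bound in every library outside the rule in the reprogramming series, with 162.7 at D6T+, 191.5 at D9T+, 292.7 at D12S- and 178.8 at D16S-, and scored 128.9 in MEF.

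Rpl3 (ENSMUSG00000060036.7), a protein of the large ribosomal subunit, scored 12.8 at D3 and between 165.3 and 398.6 in the 5 later libraries. In D0 a 13.6 kb peak with a score of 306.8 covered 99.1% of Rpl3. Rps18 scored 140.1 at D3 and had 87.9% of its length under a D0 peak of score 178.2. Further genes of this kind were Rpl19, Rpl32 and Polr1c (a subunit of RNA polymerases I and III), with D0 peaks over 80.1%, 73.9% and 73.9% of the gene. Nme2, a nucleoside diphosphate kinase, had 81.7% of its length under a D0 peak of score 184.5 and scored 186.2 at D3. Hist2h3b, a replication-dependent histone H3 gene, was 77.3% covered by a D0 peak of score 49.9 and scored 51.1 at D3. The D0 peak of Rpl3 was thus far above its D3 score, and those of the other genes named here were above their D3 scores or close to them. Cfl1, the actin-severing protein cofilin, named after its values were seen, lay whole within a 26.3 kb D0 peak of score 467.2 and scored 13.0 at D3. Scores in every library count only peaks with midpoints in the window. Whether the low D3 scores of Rpl3 and Cfl1 rest on where midpoints fell was not tested, so their rise after D3 is a rise in calls. Ribosomal protein, histone and zinc-finger genes have near-identical copies, and the authors dropped reads with more than 1 mapping place, so scores at bases shared between copies are uncertain and may be too low.

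A stretch of DNA under peaks assigned to the gene in all 6 later libraries was found in 30 of the 184 genes. At the other 154 genes no base was covered in all 6, though some, such as Sall4 and Gpa33, had a base covered in 5. How this compares with other genes was not tested. Of these 30 stretches, 17 lay fully and 4 partly inside a D0 peak, and 22 were in genes touched by D0 peaks. The 8 genes with a stretch shared by all 6 libraries and no D0 peak touching the window were 1700019D03Rik, Pipox, Naa30, Drd3, Hps3, Gm410, Pdcl2 and Zfp626, and the stretches ranged from 32 bp in Naa30 to 2264 bp in Pipox. In Gm17650, whose window a D0 peak touched, the shared stretch of 257 bp also lay outside D0 peaks. The DNA at 3 of the 8 is given below. Pipox, Pdcl2 and Drd3 were picked after their values were seen.

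Pipox (ENSMUSG00000017453.4, chr11:77694117-77707598, minus strand), a peroxisomal sarcosine oxidase, had its shared stretch over the start site and the first part of the gene, and the nearest D0 peak was 58.5 kb away. It scored 31.4 at D3, 190.8 at D6T-, 313.4 at D9T-, 154.4 at D12S+, 107.4 at D16S+ and 151.0 in iPSCs. D6T+ and MEF had no Pipox peak, while D9T+ scored 156.3, D12S- 308.5, D16S- 231.7 and ESD3 145.7. Thy-1+ cells on day 6 were thus listed like D0, and the later unsuccessful fractions were bound, as the successful ones were. H3K4me3 at the Pipox start was 6.33 in D0, 0 at D3, 130.4 at D6T-, 101.8 at D9T-, 64.3 at D12S+, 0 at D16S+ and 62.0 in iPSCs.

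Pdcl2, a phosducin-like protein best known from germ cells, had a 1520 bp shared stretch in the gene body, 3.23 kb from the nearest D0 peak to the gene. It scored 22.5 at D3, 205.6 at D6T-, 184.1 at D9T-, 90.7 at D12S+, 28.5 at D16S+ and 44.0 in iPSCs, with no H3K4me3 start-site peak in any of 7 libraries. Drd3, a dopamine receptor, had a 152 bp shared stretch 37579 bp into the gene. It scored 14.9 at D3, 78.7 at D6T-, 100.7 at D9T-, 44.4 at D12S+, 30.9 at D16S+ and 17.0 in iPSCs, and also had no H3K4me3 peak at its start. Pdcl2 and Drd3 were thus listed for H3.3 without H3K4me3 at their own annotated starts. How far the shared stretches lay from other H3K4me3 peaks was not measured. The sequences run 5′ to 3′ on the strand of the gene and were read from the NCBIM37 (mm9) genome, with capitals marking the one match to the AP-1 word TGANTCA. The first is the middle of the longest part of the Pipox stretch without annotated exons (chr11:77706366-77706565, minus strand). The second is the middle of the Pdcl2 stretch (chr5:76750726-76750925, minus strand) and the last the whole Drd3 stretch (chr16:43799913-43800064, plus strand).
Pipox: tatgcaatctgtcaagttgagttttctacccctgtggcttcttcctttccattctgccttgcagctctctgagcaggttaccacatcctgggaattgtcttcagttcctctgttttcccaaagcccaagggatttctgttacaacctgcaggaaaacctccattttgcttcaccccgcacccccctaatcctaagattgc
Pdcl2: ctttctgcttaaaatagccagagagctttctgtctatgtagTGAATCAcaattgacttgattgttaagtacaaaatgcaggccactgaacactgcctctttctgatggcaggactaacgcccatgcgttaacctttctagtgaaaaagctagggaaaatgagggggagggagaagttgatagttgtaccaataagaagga
Drd3: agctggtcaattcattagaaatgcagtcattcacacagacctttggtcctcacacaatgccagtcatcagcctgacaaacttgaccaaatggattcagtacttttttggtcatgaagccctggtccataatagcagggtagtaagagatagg

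The Pipox bases held 1 CpG and the Drd3 bases none, with GC contents of 48.0% and 43.4%. The Pdcl2 bases had 42.0% GC and 2 CpGs.

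**Figure D2:**
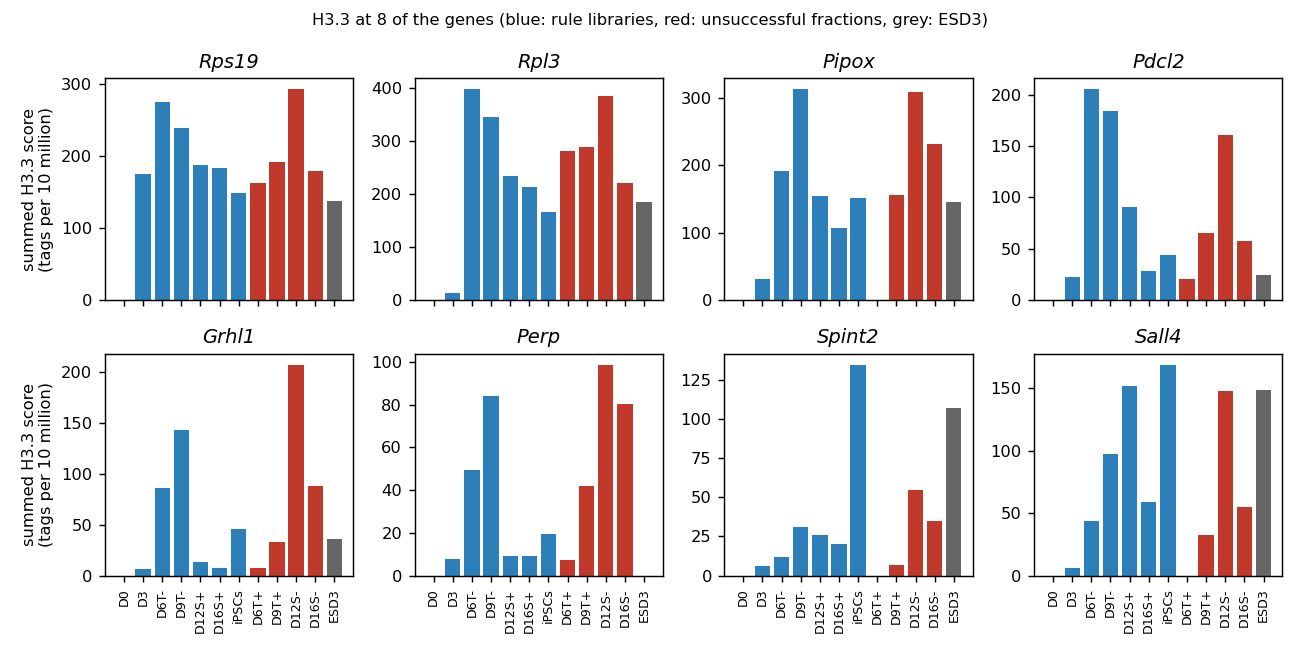
Summed H3.3 score (tags per 10000000 tags) in 12 libraries for 8 of the 184 genes, each panel on its own axis from 0. Blue bars are the libraries used to choose the genes, with D0 at 0 by the choice, red bars the unsuccessful fractions and grey bars ESD3. D6T+ is 0 or low in all but Rps19 and Rpl3, and D12S- is the highest unsuccessful fraction in every panel.

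No D0 peak touched most epithelial genes. In MEF, the second fibroblast library, 5 of the 10 in the group were bound (50.0%). This was near the 50.5% of the 184 genes and the 51.4% of all genes. MEF scored 16.5 at Spint2, 16.8 at Marveld3, 24.6 at Wfdc2, 41.4 at Gjb5 and 4.93 at Evpl. Of these 5, all but Evpl scored higher in MEF than in D3. Of the 10 genes of epithelial junctions and surface, 8 were untouched by D0 peaks, 9 had H3K4me3 in D0 and 9 in iPSCs. In D6T+ 5 were bound (50.0%), against 61.4% of the 184 genes and 50.6% of all genes. With Grhl1, an epithelial transcription factor counted among the transcription genes, 4 members were on the epithelial list. Grhl1 (ENSMUSG00000020656.9, chr12:25257152-25302256, plus strand), whose nearest D0 peak was 7571 bp away, scored 6.97 at D3, 85.6 at D6T-, 143.2 at D9T-, 13.1 at D12S+, 7.47 at D16S+ and 45.6 in iPSCs. It scored 7.68 at D6T+, 33.5 at D9T+, 207.2 at D12S- and 87.9 at D16S-. The intermediate Thy-1- cells and the late SSEA-1- cells were thus the high libraries. The late SSEA-1+ cells scored lower, and D16S+ was near the lowest peak score of its library, 5.33. H3K4me3 at the Grhl1 start was present in all 7 libraries, at 82.8 in D0, 243.8 at D6T- and 58.8 in iPSCs.

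Perp (chr10:18564877-18576879, plus strand), a protein of desmosomes and a p53 target, lay 143156 bp from the nearest D0 peak. It scored 7.55 at D3, 49.3 at D6T-, 84.2 at D9T-, 9.33 at D12S+, 9.07 at D16S+ and 19.6 in iPSCs. The unsuccessful fractions scored 7.22 at D6T+, 41.8 at D9T+, 98.6 at D12S- and 80.5 at D16S-, and ESD3 and MEF had no peak. In Perp, too, the late SSEA-1- cells were above the SSEA-1+ cells. This held after scaling to genes bound throughout, with ratios of 0.701 at D12S- and 0.223 at D12S+ for Perp, and of 1.47 and 0.313 for Grhl1. Its H3K4me3 was 71.9 in D0, 164.7 at D3 and 213.5 at D6T-.

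Spint2 (chr7:30041350-30066996, minus strand), an inhibitor of serine proteases at epithelial surfaces, scored 6.39 at D3, 12.1 at D6T-, 30.9 at D9T-, 26.2 at D12S+, 19.97 at D16S+ and 134.7 in iPSCs. It was not bound in D6T+, and scored 6.68 at D9T+, 54.5 at D12S-, 35.2 at D16S- and 107.0 in ESD3. Its highest libraries were thus the pluripotent cells. Marveld3, a tight junction protein, scored 6.00 at D3 and between 23.7 and 55.8 in the 5 later libraries, and was not bound in D6T+. Smagp, a small membrane protein of epithelial cell contacts, scored 6.19 at D3 and between 57.7 and 131.7 later, with 13.0 at D6T+. Gpa33, a surface antigen of the gut epithelium, scored 6.19 at D3, 24.6 at D6T-, 86.4 at D9T-, 78.2 at D12S+, 48.6 at D16S+ and 276.4 in iPSCs, the highest iPSC score among the 184 genes. It was not bound in D6T+ and scored 6.46 at D9T+, 112.0 at D12S- and 36.4 at D16S-. The other 5 genes of the group were higher in D3, with 8.90 for Cnksr1, 9.48 for Evpl, 13.6 for Shroom2, 15.5 for Wfdc2 and 25.7 for Gjb5. Evpl and Gjb5 were touched in D0, by peaks of score 47.3 and 87.2, and Gjb5 scored 49.6 at D6T+.

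The 200 bases upstream of the annotated start of the epithelial genes Grhl1, Perp and Spint2 and of the ribosomal gene Rps19 are shown because these starts carried H3K4me3 in all 7 libraries although H3.3 was not called in D0. The stretches are chr12:25256952-25257151 (plus), chr10:18564677-18564876 (plus), chr7:30066997-30067196 (minus) and chr7:25669190-25669389 (plus) of NCBIM37 (mm9), read 5′ to 3′ on the strand of the gene. Capitals mark the GC box GGGCGG on either strand and the AP-1 word TGANTCA.
Grhl1: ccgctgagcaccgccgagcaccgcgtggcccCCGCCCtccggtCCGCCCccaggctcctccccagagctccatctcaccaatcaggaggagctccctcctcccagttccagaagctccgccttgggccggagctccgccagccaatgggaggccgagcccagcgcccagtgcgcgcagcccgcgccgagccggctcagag
Perp: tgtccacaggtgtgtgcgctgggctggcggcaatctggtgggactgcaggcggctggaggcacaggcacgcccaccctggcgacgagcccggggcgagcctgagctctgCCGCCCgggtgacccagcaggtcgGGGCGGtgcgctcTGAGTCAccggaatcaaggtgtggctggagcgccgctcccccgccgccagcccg
Spint2: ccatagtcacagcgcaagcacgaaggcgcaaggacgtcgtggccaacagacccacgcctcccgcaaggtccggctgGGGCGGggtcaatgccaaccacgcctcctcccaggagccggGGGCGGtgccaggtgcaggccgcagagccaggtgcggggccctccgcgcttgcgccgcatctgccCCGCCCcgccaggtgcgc
Rps19: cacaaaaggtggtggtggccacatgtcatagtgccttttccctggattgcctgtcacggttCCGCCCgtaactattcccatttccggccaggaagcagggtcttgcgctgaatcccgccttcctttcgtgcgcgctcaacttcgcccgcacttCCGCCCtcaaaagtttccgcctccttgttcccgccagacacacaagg

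Spint2 had 3 GC boxes, Grhl1 2, Rps19 2 and Perp 2, with the AP-1 word at base -54 from the Perp start. GC content was 74.0% in Grhl1, 73.5% in Perp, 73.5% in Spint2 and 58.0% in Rps19. A match is a string of letters and says nothing of whether a factor was bound.

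Promoters of the 184 genes, taken as 250 bases before and 50 after the start, had a median GC content of 58.2% against 55.3% for all 22362 promoters searched, and a ratio of observed to expected CpG of 0.705 against 0.542. The GC box occurred in 104 of the 184 promoters (56.5%, interval 49.3 to 63.5) and in 44.0% of all promoters. The E-box CACGTG, which Myc recognises, was found in 9.24% against 7.78%, the Oct4 octamer ATGCAAAT in 2.17% against 1.73%, the Sox word CATTGTT in 2.72% against 3.60%, the Klf word GGGTGTGG in 2.17% against 3.63% and the AP-1 word in 3.26% against 6.79%. Both strands were searched, and the words of the delivered factors lay within counting error of all promoters.

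Among the transcription genes, Sall4 is a zinc-finger factor of the pluripotency network. Sall4 (ENSMUSG00000027547.11, chr2:168573832-168593443, minus strand) scored 6.00 at D3, 44.0 at D6T-, 96.9 at D9T-, 152.0 at D12S+, 59.1 at D16S+ and 168.6 in iPSCs. It was not bound in D6T+, and scored 32.8 at D9T+, 147.9 at D12S-, 54.6 at D16S- and 148.8 in ESD3. The late fractions were close in score, but not after scaling. As a ratio to the median of genes bound throughout, Sall4 was 3.64 at D12S+ and 1.05 at D12S-, and 2.35 at D16S+ and 0.70 at D16S-. H3K4me3 at Sall4 was 109.4 in D0, 86.1 at D3, 350.5 at D6T-, 402.7 at D9T-, 217.6 at D12S+, 93.9 at D16S+ and 480.5 in iPSCs, and H3K36me3 was called only in D9T- (60.6) and iPSCs (56.9). The nearest D0 H3.3 peak lay 3925 bp from Sall4, and MEF scored 5.68.

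Myb, a transcription factor of blood progenitors, scored 29.4 at D3, 68.8 at D6T-, 54.8 at D9T-, 9.11 at D12S+, 27.2 at D16S+ and 24.1 in iPSCs. Its nearest D0 peak was 73234 bp away, and it scored 6.98 at D6T+, 14.0 at D9T+, 63.4 at D12S- and 24.2 at D16S-. Hoxc8, by contrast, was highest in D9T- (34.0) and lowest in iPSCs (5.35) among the 6 libraries, with H3K4me3 of 185.9 in D0 and 12.7 in iPSCs. The zinc-finger gene Zfp97 scored 14.1 at D3 and 128.0 in iPSCs, and was touched by a D0 peak of score 13.7 whose midpoint lay 2 bp outside the window. Of the 24 transcription genes, 9 were touched by a D0 peak, 22 had H3K4me3 in D0 and 23 in iPSCs.

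In the metabolic group, Pdk1, a kinase that inhibits pyruvate dehydrogenase, scored 9.87 at D3, 24.9 at D6T-, 52.7 at D9T-, 51.3 at D12S+, 44.0 at D16S+ and 44.0 in iPSCs. The unsuccessful fractions scored 8.61 at D6T+, 19.15 at D9T+, 193.6 at D12S- and 110.5 at D16S-, the late SSEA-1- cells having the highest scores. As a ratio to the median of genes bound throughout, Pdk1 was 1.38 at D12S- and 1.23 at D12S+, and 1.42 at D16S- and 1.75 at D16S+, so that this order turned on day 16. Gfer, a sulfhydryl oxidase of mitochondria, scored 83.2 at D3 and 113.0 in iPSCs, and 24.2% of the gene lay under D0 peaks. Of the 27 metabolic genes, 10 were touched in D0 and 19 (70.4%) were bound in D6T+, against 61.4% of the 184 genes and 50.6% of all genes. All 9 genes of mitosis had H3K4me3 in D0 and in iPSCs, against 88.0% and 87.0% of the 184 genes, and 8 had H3K36me3 in D0, against 52.2%. The 7 nerve and muscle genes had no H3K36me3 in D0, and 2 (28.6%) were bound in D6T+. These groups are small and were made after the members were seen, so their counts are a description.

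The unsuccessful fractions, which were not used to choose the genes, bear on whether H3.3 at these genes was particular to the successful route. Of the 184 genes, 113 were bound in D6T+ (61.4%, interval 54.2 to 68.2, against 50.6% of all genes), 154 at D9T+ (83.7%, interval 77.7 to 88.3, against 52.2%), 174 at D12S- (94.6%, interval 90.3 to 97.0, against 60.2%) and 164 at D16S- (89.1%, interval 83.8 to 92.9, against 54.2%). The mean share over the 4 fractions was 82.2%, against 97.1% for genes bound in D0 and all later libraries, 66.3% for the 156 genes bound from D6T- onwards and not before, 32.1% for the 2079 other genes not bound in D0 and bound in iPSCs, and 13.8% for all genes not bound in D0. The genes had to carry calls in 6 libraries to be chosen, and their median length of 15.2 kb was above the 5.53 kb of the 9169 genes not bound in D0. What part length and ease of calling had in the shares was not tested.

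All 4 unsuccessful fractions were bound at 82 genes (44.6%, interval 37.6 to 51.8), a share near the 40.2% of all genes. The share was 3.25% for genes not bound in D0 and 23.1% for the 156 genes bound from D6T- onwards. Of the 184 genes, 78 were bound in 3 fractions, 20 in 2 and 3 in 1, the last being Ankrd45, Gm17283 and Hsdl1. The single gene bound in none was Gm12588, which scored 12.0 at D3, 8.43 at D6T-, 5.87 at D9T-, 15.1 at D12S+, 14.7 at D16S+ and 125.5 in iPSCs, and 20.1 in ESD3. H3.3 restricted to the successful cells was thus listed at 1 of 184 genes, and with low scores before iPSCs. The share bound in none of the 4 fractions was 0.54% of the 184 genes. It was 33.3% of all genes, 73.3% of genes not bound in D0 and 3.85% of the 156 genes bound from D6T- onwards. The genes bound in all 4 fractions with the highest iPSC scores were Rpl3, Rps19, Smagp, Zfp97 and Gfer, of which 4 were touched by D0 peaks.

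D6T+ was the unsuccessful fraction in which touched and untouched genes differed beyond their intervals. It was bound at 63 of the 72 genes touched in D0 (87.5%, interval 77.9 to 93.3) and at 50 of the 112 untouched genes (44.6%, interval 35.8 to 53.9). The other fractions did not show such a gap. D9T+ was bound at 88.9% of touched and 80.4% of untouched genes, D12S- at 88.9% and 98.2%, and D16S- at 87.5% and 90.2%. The median D6T+ score was 40.0 over the 63 touched genes bound and 9.42 over the 50 untouched ones, against 44.4 and 37.9 at D6T-. D6T+ had 60705 peaks and D6T- 82764, and the part of this difference in the shares was not tested. The contact with D0 peaks is an H3.3 measure of the D0 library used by the rule, so these shares are given as a description.

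**Figure D3:**
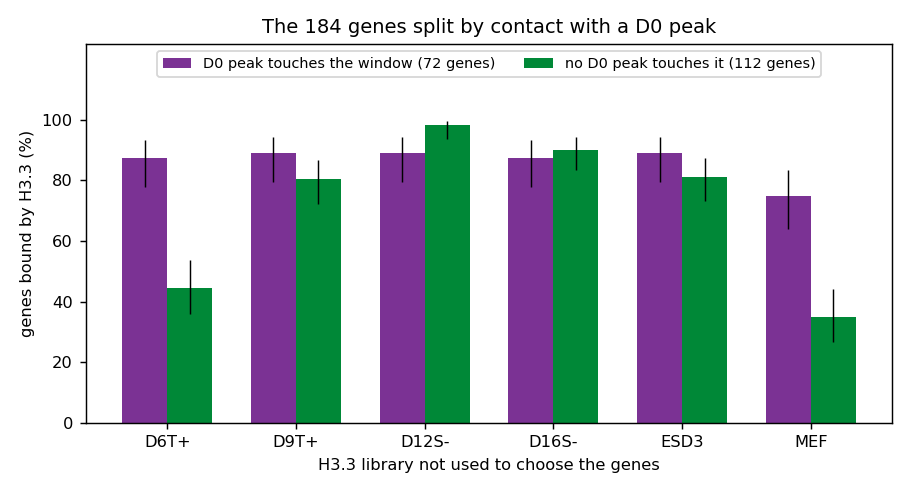
Share of genes bound by H3.3 (%) in the 4 unsuccessful fractions, ESD3 and MEF, for the 72 genes touched by a D0 peak (purple) and the 112 that are not (green), with 95% Wilson intervals. The intervals of both sets are apart in D6T+ and in MEF.

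In late cells, scores of the unsuccessful fractions were above those of the successful ones before scaling. The median score of the bound members was 62.0 at D12S- and 21.1 at D12S+, and 31.1 at D16S- and 15.2 at D16S+. D12S- had 22.0% of its tags in peaks and D12S+ 6.93%. Set against the median of genes bound throughout, the member median was 0.441 at D12S- and 0.505 at D12S+, and 0.399 at D16S- and 0.606 at D16S+, so the order of the fractions turned with the scale. No direction between the late fractions is therefore given for the set as a whole.

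ESD3 bound 155 of the 184 genes (84.2%, interval 78.3 to 88.8), against 50.4% of all genes. The genes bound from D6T- onwards were near this, at 82.1%. In the MEF library of the blood conversion, which like D0 is of fibroblasts before induction, 93 of the 184 genes were bound (50.5%, interval 43.4 to 57.7), a share near that of all genes, 51.4%, and above the 11.8% of genes not bound in D0. With H3.3 peaks limited to those at least 4 times their input, 70 genes met the rule and 7.14% of them were bound in MEF. The share of all genes bound in MEF at this limit was not computed. Whether the low share is particular to these genes was thus not tested. The MEF calls fell on 54 of the 72 touched genes and on 39 of the 112 untouched ones, so that 91 genes were free of midpoint calls in both fibroblast libraries. MEF had 46.7 M tags and D0 27.0 M. D4 bound 146 genes (79.3%, interval 72.9 to 84.6, against 66.8% of all genes), cKit+ 55 (29.9%, against 32.1%) and cKit- 45 (24.5%, against 30.5%). The shares in both cKit libraries, which had 1.65% and 2.31% of tags in peaks, were at or under those of all genes.

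**Figure D4:**
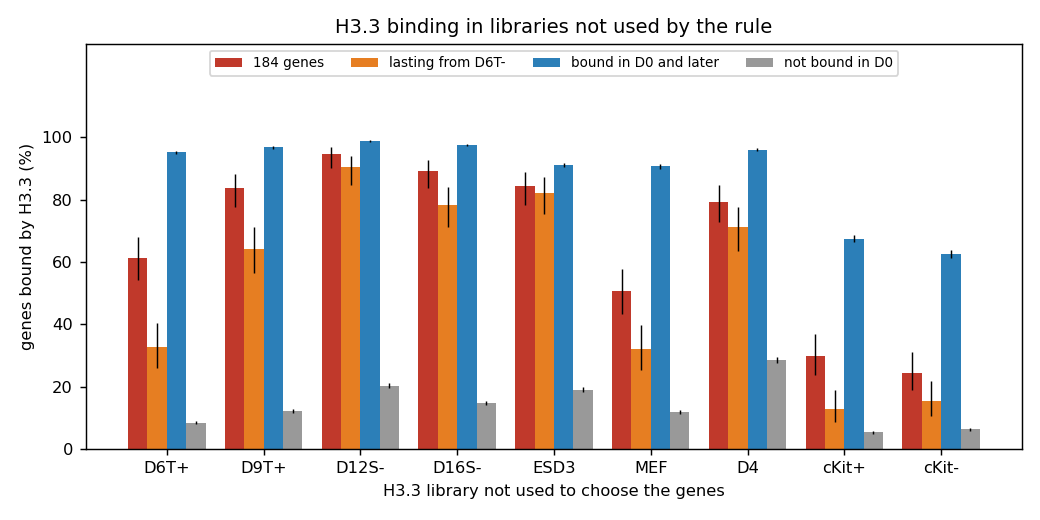
Share of genes bound by H3.3 (%) in the 9 H3.3 libraries not used to choose the genes, with 95% Wilson intervals. Red bars are the 184 genes, orange the 156 genes bound from D6T- onwards, blue the 6273 genes bound in D0 and later, and grey the 9169 genes not bound in D0. The red bars lie between blue and grey in each library.

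H3K4me3 was already present at most of these genes in fibroblasts. A start-site peak was called in D0 at 162 of the 184 genes (88.0%, interval 82.6 to 92.0), against 66.0% of all genes and 31.4% of genes not bound by H3.3 in D0. The share was 87.5% in D3 (64.7% of all genes), 88.6% at D6T- (65.6%), 88.0% at D9T- (64.6%), 87.5% at D12S+ (62.5%), 67.4% at D16S+ (45.9%) and 87.0% in iPSCs (64.4%). D16S+ was low for all genes, with 3.71% of its tags in peaks. The mark was thus held at a like share before and after H3.3 was called. Untouched genes had it in D0 in 85.7% and touched genes in 91.7%.

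Both D0 and iPSCs had H3K4me3 at 155 genes, D0 alone at 7, iPSCs alone at 5 and neither at 17. It was called in all 7 libraries at 121 genes (65.8%, against 44.3% of all genes), and in none at 8, namely Trdn, Drd3, Taf6l, Gm17283, Cga, Pdcl2, Akr1d1 and Capn12. The 7 genes marked in D0 and not in iPSCs were 2900060B14Rik, Aspa, Lix1, Gjb5, Gm17660, Gnb3 and Ctf1. Aspa codes for an enzyme of acetylaspartate breakdown, Gjb5 for a connexin and Ctf1 for a cytokine of the interleukin-6 family. Median H3K4me3 scores of marked members were 146.7 in D0 and 66.5 in iPSCs, against 170.5 and 60.2 for all marked genes.

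The 5 genes with H3K4me3 in iPSCs and none in D0 were Folr1, Gpa33, Zfp626, Amhr2 and Blnk. Folr1, a folate receptor, had H3K4me3 of 37.4 at D12S+ and 207.7 in iPSCs and none in the other 5 libraries. Its H3.3 score was 5.42 at D3, 5.90 at D6T-, 34.4 at D9T-, 32.7 at D12S+, 44.6 at D16S+ and 139.3 in iPSCs. H3.3 calls were thus listed at Folr1 in 3 libraries of the route before H3K4me3 calls. The D3 and D6T- scores lay near the lowest peak scores of these libraries, 5.03 and 4.89. H3.3 peaks needed a fold of 2 over input and H3K4me3 peaks 4, so this order rests on unlike limits. MEF also had an H3.3 call at Folr1, with a score of 8.57. Gpa33 had H3K4me3 of 39.9 at D6T-, 47.3 at D9T-, 56.8 at D12S+, 19.6 at D16S+ and 98.9 in iPSCs. Zfp626 had H3K4me3 in iPSCs alone (81.5), with H3K36me3 of 243.1 in D0 and 303.1 at D9T-. Amhr2, the receptor for anti-Müllerian hormone, had 24.3 in iPSCs, and Blnk, an adaptor of B-cell signalling, 5.79 in iPSCs against 91.6 at D6T-.

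**Figure D5:**
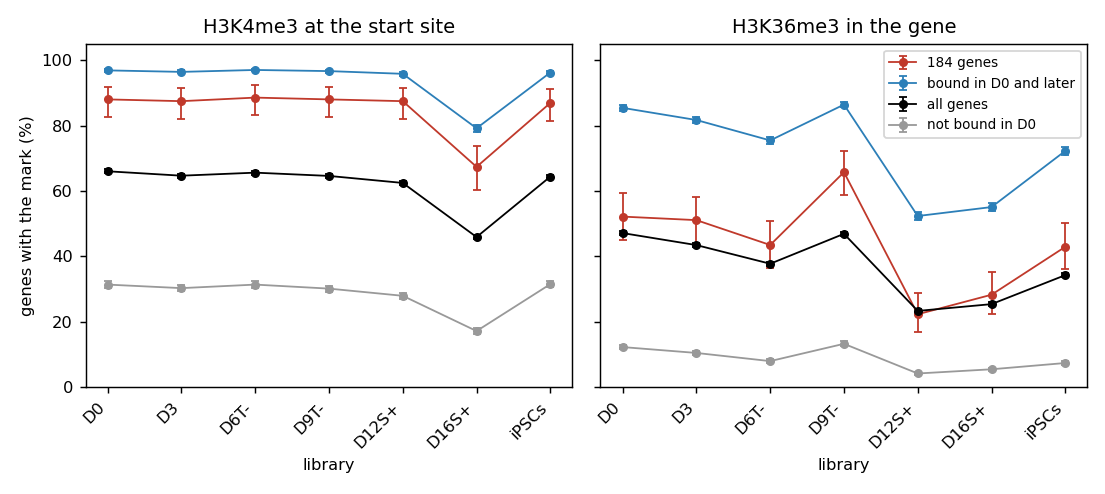
Share of genes (%) with an H3K4me3 start-site peak (left) and an H3K36me3 midpoint in the gene window (right) in 7 libraries, with 95% Wilson intervals. Red is the 184 genes, blue the 6273 genes bound by H3.3 in D0 and later, black all genes and grey genes not bound by H3.3 in D0. Red lies above black in every H3K4me3 library, and its H3K36me3 interval lies above black in D3, D9T- and iPSCs.

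H3K36me3 was less common at the 184 genes than H3K4me3, with shares nearer those of all genes. A midpoint was called in the gene window in D0 at 96 genes (52.2%, interval 44.99 to 59.3, against 47.1% of all genes and 12.2% of genes not bound by H3.3 in D0). The share was 51.1% at D3 (43.5% of all genes), 43.5% at D6T- (37.7%), 65.8% at D9T- (46.9%), 22.3% at D12S+ (23.3%), 28.3% at D16S+ (25.4%) and 42.9% in iPSCs (34.3%). The intervals lay above the share of all genes in D3 (43.9 to 58.2), D9T- (58.7 to 72.2) and iPSCs, and D9T- had the highest share and the widest gap. It also had 42.4% of its tags in peaks, the most of the H3K36me3 libraries, while D12S+ had 1.07%. Both D0 and iPSCs had the mark at 57 genes, D0 alone at 39, iPSCs alone at 22 and neither at 66. It was called in none of 7 libraries at 37 genes (20.1%, against 42.8% of all genes), and neither mark was called in any library at Cga, the shared subunit of the glycoprotein hormones, and Trdn, a calcium-release protein of muscle.

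The protein synthesis group had H3K36me3 in D0 at 15 of 17 genes and in iPSCs at 13, whereas the epithelial group had it at 0 and 4 of 10. Among genes with H3K36me3 in iPSCs and none in D0, those with the highest iPSC score were AI661453 (105.7), Spint2 (58.2), Sall4 (56.9) and Ankrd45 (34.0). AI661453, a gene with no role given here, scored 8.13 for H3.3 at D3, 8.26 at D6T-, 12.8 at D9T-, 46.2 at D12S+, 40.3 at D16S+ and 158.4 in iPSCs. Like Spint2 and Sall4, it was highest for H3.3 in iPSCs and had no H3.3 call in D6T+. Ankrd45 scored 6.39 for H3.3 at D3, 59.0 at D6T- and 88.2 in iPSCs, and 16.8 at D12S- as the sole unsuccessful fraction.

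Within the genes, H3.3 lay over the start more often than at all bound genes, counted by peaks. In D3, 35.3% of member peaks lay within 1 kb of a start, against 14.4% for all bound genes, and in iPSCs 34.2% against 23.6%. Counted by genes there was no such gap, since 48.9% of members had a start-site peak in D3 (interval 41.8 to 56.1) against 53.7% of all bound genes, and 69.6% in iPSCs (interval 62.6 to 75.8) against 73.1%. The members thus had a smaller share of their peaks in the gene body, 51.2% in D3 against 78.7%. A start-site peak was present in all 6 later libraries at 37 genes, in 1 to 5 libraries at 129 and in none at 18. The peaks themselves were like others, with a median fold over input of 4.46 at D3, against 4.32 for all peaks in genes, and 3.21 in iPSCs against 3.22. A single peak made the call in D3 at 120 genes (65.2%) and in iPSCs at 64 (34.8%).

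Some calls are shared with a neighbour. The window of 44 members (23.9%, against 18.1% of all genes) held the start of another protein-coding gene. Cir1 and Scrn3 shared a peak in 5 of the 6 libraries, as did Nipal3 and 4930555I21Rik, so each pair is close to a single observation. On the X chromosome lay 5 of the 184 genes.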

How the data were processed

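H3.3, H3K4me3 and H3K36me3 were measured by chromatin immunoprecipitation sequencing, and the authors deposited 1 peak list per library (30 lists, with 16 input samples not used here). Submitters' notes name STAR, HOMER and mm9, versions not stated. The authors kept only reads with a single mapping place and called peaks in the histone style. Per the file headers, scores are a signal, the normalized tag count per 10000000 tags, with the fold (ratio) over input beside it. The authors required a Poisson p-value over input of 1e-04 in their headers, a fold of at least 2 for H3.3 and, from the values, 4 for both marks, with a peak size of 500 and peaks at least 1000 bp apart. The fold was read as given.

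Gene windows came from GENCODE vM1 (22367 protein-coding genes). H3.3 and H3K36me3 were assigned to a gene by peak midpoints in the gene and 1 kb either side, and H3K4me3 by overlap of 1 bp with 1 kb either side of a start. Peaks of a gene were summed. Groups came from the sample labels, with 1 library each, so no test was made; shares have 95% Wilson intervals. Sequences were read from NCBIM37. Python 3.11.15, pandas 2.3.3, numpy 2.4.6, scipy 1.17.1 and matplotlib 3.10.9 were used, and the assignment was tested on simulated data.

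The members, the lists and the rules were chosen with earlier results of these data known. The functional groups, the split by contact with a D0 peak, and the genes Cfl1, Pipox, Pdcl2, Drd3, Naa30, Cga and Trdn were chosen after their values were seen. Other named genes are the 8 with the highest minimum H3.3 score over the 6 later libraries, those on a list, the 5 with the highest iPSC score among genes bound in all or in none of the unsuccessful fractions, the 5 with H3K4me3 and the 4 with H3K36me3 in iPSCs and not in D0, and the 3 either side of the rule; a gene named by the first and one by the last of these are not reported here.

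Alternatives were an equal number of peaks per library, a fold of at least 4, no flank, overlap in place of midpoints, autosomes only, stronger or wider mark calls, genes without a second start, and, chosen after seeing the data, leaving D16S+ out, requiring no binding in MEF, and requiring no D0 peak within 5 kb.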

Additional observations from a re-analysis of the deposited data

How the results depend on the processing

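Over 8 results, 31 of 55 alternative values moved by less than counting error or stayed within 1.5 times the count, and 24 moved further. The number of genes depended most on the calls. It was 382 with equal numbers of peaks (34062 per library), 70 at a fold of at least 4, 279 without D16S+ in the rule, 91 when MEF also had to be unbound and 70 when no D0 peak could lie within 5 kb, against 184; overlap in place of midpoints gave 150 genes, of which 112 were among the 184. The mean share bound in the unsuccessful fractions was 85.4% at a fold of at least 4, 78.6% with no flank and 79.0% without D16S+, against 82.2%. For this mean, each gene was counted once in each of the 4 fractions, as if these were separate. Its counting error was thus too narrow, and these values, counted among the 24, may lie within counting error over 184 genes. The share bound in MEF was 59.2% with equal peaks, 7.14% at a fold of at least 4, 42.2% with no flank and 34.7% by overlap. The shares of all genes bound in MEF under these settings were not computed. H3K4me3 in D0 was 95.03% with equal peaks, and in iPSCs 94.2% with equal peaks, 94.3% at a fold of at least 4 and 91.8% with any midpoint in the window. H3K36me3 in D0 was 70.9% with equal peaks, 67.1% at a fold of at least 4, 60.1% with no flank, 44.7% by overlap and 41.8% for peaks at or above the median score, and in iPSCs 62.3%, 64.3% and, for the last, 29.3%. With equal peaks, a fold of at least 4, no flank and overlap, only the H3.3 calls changed, and with them the genes chosen. The H3K4me3 and H3K36me3 calls stayed as reported in these settings. The cause of the moves was not tested. No alternative moved the ESD3 share beyond counting error. With 1 library per group, depth and enrichment cannot be told apart from the cell state, and no replicate could be left out. No paired analysis was possible because each group is a single library without a replicate number.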
